A study of Mus musculus with 44 samples.

Results

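Striatal-only H3K27ac peaks are genomic stretches that carried a called peak of this histone mark in both regions of the striatum, the nucleus accumbens (NAC) and the caudate putamen (CP), and in neither the paraventricular thalamic nucleus (PVT) nor the cortex (COR). They were chosen by measured peak calls: an autosomal NAC peak counted as a member when it overlapped a CP peak by at least 1 bp and no PVT or COR peak, and the 1000 widest NAC peaks were left out. The rule found 9676 members among 128441 autosomal NAC peaks, or 7.53%. The presence of a peak in NAC and CP and its absence in PVT and COR are therefore given, and are not results.

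H3K27ac was measured by chromatin immunoprecipitation and sequencing in 4 libraries of each region, 2 from wild-type (WT) mice and 2 from Polg(D181A) mice. All of these mice were adults of strain C57BL/6 per the labels, and nuclei were sorted on the neuronal protein NeuN before the assay. Polg encodes the catalytic subunit of the polymerase that copies mitochondrial DNA, and the mutant is a transgene known to be driven by the Camk2a promoter of forebrain neurons, so the animals keep their own Polg genes. Whether replicates are separate animals is not stated in the labels. The p-values therefore measure only the spread between these samples, which may be technical.

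H3K27ac is acetylation of lysine on the tail of histone H3, and it marks active promoters and enhancers. Enhancers carry it in a pattern that depends strongly on cell type, while promoters of widely used genes carry it in most cells. The striatum consists mainly of GABA-releasing projection neurons. Those of the direct pathway carry the dopamine receptor Drd1 and the peptides of Tac1 and Pdyn, and those of the indirect pathway carry Drd2, the adenosine receptor Adora2a and the enkephalin precursor Penk. Both kinds read dopamine through cyclic AMP, which Adcy5 makes and Pde10a and Pde7b degrade.

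The members lay mostly away from gene starts: 146 of them covered 178 annotated transcript starts of 158 protein-coding genes. Starts of some genes were missing from the set used, so counts of covered starts may be too low. A member 2256 bp from Penk, for example, was 63557 bp from the nearest start used. Of the genes in the 12 lists used below, 6 had a covered start. These were Chrm4 (a muscarinic receptor of direct-pathway neurons), Isl1 (a LIM homeodomain factor needed for direct-pathway neurons), Nts (neurotensin), Pde10a, Pdyn (prodynorphin) and Six3 (a homeodomain factor needed for indirect-pathway neurons). The 250 bases before each of these annotated starts are shown because the members reach them. Those of Pde10a and Six3 are starts inside the gene, not its outer start. The Pde10a start is at 8849985 in a gene that begins at 8525187. The Six3 start is at 85620834 in a gene that begins at 85613608. They come from RefSeq on build GRCm38.p6 (mm10), 5′ to 3′ on the gene's own strand. Capitals mark matches to 10 short factor motifs searched on both strands; Chrm4 and Pdyn had none.

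Chrm4 (plus strand, chr2:91921939-91922188): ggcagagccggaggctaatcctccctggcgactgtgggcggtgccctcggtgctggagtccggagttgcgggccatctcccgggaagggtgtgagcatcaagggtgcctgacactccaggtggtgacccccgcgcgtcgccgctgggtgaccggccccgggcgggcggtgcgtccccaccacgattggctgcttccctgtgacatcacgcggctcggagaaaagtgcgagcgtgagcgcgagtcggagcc
Isl1 (minus strand, chr13:116309689-116309938): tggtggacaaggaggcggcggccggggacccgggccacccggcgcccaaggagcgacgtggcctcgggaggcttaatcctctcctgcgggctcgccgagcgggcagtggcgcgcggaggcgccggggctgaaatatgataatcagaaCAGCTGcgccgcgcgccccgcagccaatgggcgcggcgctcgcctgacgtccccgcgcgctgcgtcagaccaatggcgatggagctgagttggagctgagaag
Nts (minus strand, chr10:102490419-102490668): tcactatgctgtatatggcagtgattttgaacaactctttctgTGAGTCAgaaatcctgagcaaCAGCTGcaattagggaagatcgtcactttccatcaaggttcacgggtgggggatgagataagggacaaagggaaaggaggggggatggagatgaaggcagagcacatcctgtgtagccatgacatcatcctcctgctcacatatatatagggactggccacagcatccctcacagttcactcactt
Pde10a (plus strand, chr17:8849735-8849984): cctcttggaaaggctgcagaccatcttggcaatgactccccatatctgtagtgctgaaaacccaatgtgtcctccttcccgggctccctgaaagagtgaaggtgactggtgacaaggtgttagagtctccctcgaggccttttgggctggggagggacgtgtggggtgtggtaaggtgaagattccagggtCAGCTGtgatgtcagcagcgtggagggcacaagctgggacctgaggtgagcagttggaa
Pdyn (minus strand, chr2:129698659-129698908): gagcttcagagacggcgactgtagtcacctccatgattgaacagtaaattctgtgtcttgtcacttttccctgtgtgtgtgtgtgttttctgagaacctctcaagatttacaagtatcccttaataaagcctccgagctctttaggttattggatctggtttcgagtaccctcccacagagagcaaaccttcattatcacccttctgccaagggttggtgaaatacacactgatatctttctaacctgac
Six3 (plus strand, chr17:85620584-85620833): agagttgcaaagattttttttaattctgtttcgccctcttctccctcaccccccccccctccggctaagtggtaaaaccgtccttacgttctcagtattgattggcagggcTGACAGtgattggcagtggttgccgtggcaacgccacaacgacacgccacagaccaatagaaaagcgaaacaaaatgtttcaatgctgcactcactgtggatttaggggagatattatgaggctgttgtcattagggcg

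The capitals are the E-box CAGCTG at Isl1, Nts and Pde10a, the AP-1 site TGANTCA at Nts and the MEIS site TGACAG at Six3. Over the 178 starts covered by members, CAGCTG was found in 14.04% against 12.2% of all 20063 starts, TGACAG in 12.9% against 15.1%, and TGANTCA in 4.49% against 6.19%. The forkhead site TGTTTAC stood in 4.49% of the members' starts and 2.64% of all starts, and the cyclic AMP response element TGACGTCA in 2.25% and 1.98%. The homeodomain site TAATTA was in 2.25% against 4.26%, CCCNNGGG (EBF) in 13.5% against 13.9%, AAAGGTCA (a nuclear receptor half-site) in 1.124% against 1.19%, GCGTGGGCG (EGR) in 0.562% against 0.723% and ATGCAAAT (the POU octamer) in 1.69% against 1.59%. These shares are descriptions of the letters in those windows, and GC content was close, at 58.1% for the members' starts and 55.8% for all.

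The members at these starts carried few reads in some libraries. CPM (counts scaled to library size) for the Chrm4 member, chr2:91921373-91924083, were 76.1 and 62.2 in the WT libraries of NAC and 24.7 and 12.7 in the Polg libraries. In CP they were 33.5 and 17.9 in WT and 8.93 and 17.3 in Polg. Both Polg libraries were therefore lower than both WT libraries in each region, in CP by little, since WT replicate 2 and Polg replicate 2 were nearly level. No member was called for genotype in either region, and how many members had this order was not counted. Among the 1064 genes with at least 3 members, summed levels of the genotypes did not overlap for 21.6% in NAC and 30.5% in CP. The Isl1 member, chr13:116309065-116312516, had 61.1 and 17.1 CPM in NAC WT and 23.7 and 44.5 in NAC Polg. In CP it had 17.9 CPM in WT replicate 1, 0 in WT replicate 2, 0 in Polg replicate 1 and 0.0963 in Polg replicate 2. Its read support in the caudate putamen thus rested almost wholly on 1 library. The Six3 member, chr17:85620342-85621883, had 22.9 CPM in NAC WT replicate 1, 7.54 in NAC Polg replicate 2 and 0 in the other NAC libraries.

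In size the members ranged from 251 to 5724 bp, with a median of 795.5 bp and quartiles of 402 and 1444 bp. NAC peaks that met no peak of another region had a median of 320 bp, and those that met one in every region a median of 1832 bp (both without the widest peaks). Near the edges of the rule, 1114 members overlapped CP peaks by fewer than 100 bp, and 433 had a PVT or COR peak within 100 bp. The median share of a member that CP peaks covered was 43.4%, and the median distance to the nearest PVT or COR peak was 2202 bp. The width limit left out 47 peaks that met the overlap rule, from 5773 to 10657 bp wide, while the widest member had 5724 bp.

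The genes nearest to those 47 wide peaks included several with many members. Among the peaks were a stretch of 10141 bp (chr13:53795671-53805811) and one of 5792 bp (chr13:53846585-53852376) whose nearest gene was Drd1, 2 within Pde10a, and one of 7069 bp (chr10:75336333-75343401) that began 1541 bp from Adora2a. The widest was next to Zswim6, a zinc finger gene. All counts below are without them.

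Members lay at gene ends, meaning at most 1000 bp from a protein-coding gene's start or finish, in 4.89% of cases, within genes in 52.9% and outside genes in 42.2%. Peaks shared by all 4 regions were at gene ends in 35.4%, and peaks of NAC alone in 3.15%. Nearest genes are used here as landmarks of position, with no statement on which gene a peak acts on. Of 15085 genes that were nearest to an autosomal NAC peak, 3911 (25.9%) had a member, 1064 (7.05%) had at least 3 and 135 had at least 10.

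Members made up a larger share of the peaks near genes of striatal neurons than of all NAC peaks. This is a description, because a rule that asks for CP peaks and no PVT or COR peak in part sets these shares. Of all autosomal NAC peaks, 52.7% met no peak of another region (the widest aside) and could not be members. Of the NAC peaks nearest to 12 neuropeptide and GABA genes, 22.9% (40 of 175) were members, and of those nearest to 23 genes of dopamine and cyclic AMP signalling 19.3% (114 of 591). The share was 16.5% (147 of 892) for 26 striatal transcription factors and 13.4% (50 of 372) for 20 receptors, against 7.53% over all NAC peaks. It was 14.6% (47 of 322) near markers of direct-pathway neurons and 17.2% (27 of 157) near markers of indirect-pathway neurons, which share genes with the lists before them. The peptide list holds Sst and Npy, which also mark striatal interneurons, and without both its share was 22.4% (34 of 152).

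Markers of other cells gave lower shares. Near striatal interneuron markers 11.5% (10 of 87) were members, but 6 of the 10 were near Npy, and without Npy and Sst the share was 6.25% (4 of 64). Near thalamic neuron markers it was 7.41% (16 of 216), with 9 of the 16 near Foxp2 and Six3, which are also on the striatal factor list, and 4.43% (7 of 158) without them. Near cortical projection neuron markers it was 3.16% (3 of 95). Near astrocyte markers it was 5.48% (4 of 73), near oligodendrocyte lineage markers 4.76% (2 of 42), and near microglia and vascular markers none of 20. Since members were required to lack a cortical and a thalamic peak, the cortical and thalamic shares are in part set by the rule, as are the striatal ones.

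**Figure D1:**
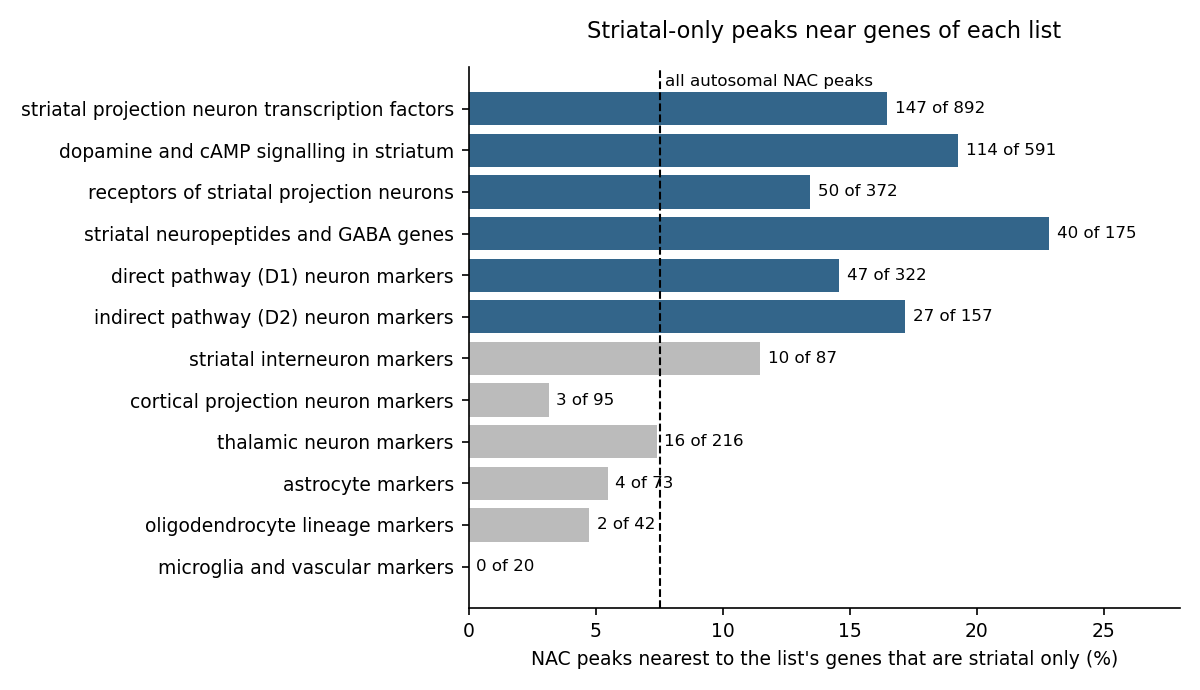
Bars show the percent of autosomal NAC peaks nearest to the genes of each list that are striatal only, with the numbers of peaks beside each bar. The dashed line is the 7.53% of all autosomal NAC peaks; the 4 lists of striatal genes and the lists of direct and indirect pathway markers (blue) lie right of it, between 13.4% and 22.9%. Of the other 6 (grey) only the interneuron list does, at 11.5%, and not without Npy and Sst (6.25%).

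Among the transcription factors, Meis2, a homeodomain factor of striatal and other ventral forebrain neurons, had most members, 24 of its 84 NAC peaks. Rarb, a retinoic acid receptor, had 16 of 112, and its partner Rxrg, a retinoid X receptor, had 9 of 18. The forkhead genes Foxp1 and Foxo1 had 13 each (of 99 and 48 peaks) and Foxp2 had 6 of 52. Bcl11b, a zinc finger factor of projection neurons also known as Ctip2, had 10 of 44, and Mef2c, a MADS-box factor, 11 of 96. Mn1 and Pbx3, the latter a homeodomain partner of Meis proteins, had 9 each (of 49 and 34), Isl1 had 6 of 49, Tshz1 5 of 41, and Meis1 (of 32 peaks), Ikzf1 (of 9) and Six3 (of 6) had 3 each. In all, 19 of the 26 factors had at least 1 member, while Ikzf2, Sp8, Zfp521, Gsx2, Dlx1, Dlx2 and Dlx5 had none.

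In the dopamine and cyclic AMP list, 18 of 23 genes had a member. Drd1 led with 18 of 57 NAC peaks, none of them within the gene, reaching 271 kb from it and covering 43.7 kb in sum. Drd2 had 5 of 12 and Drd3, a dopamine receptor of the ventral striatum, 4 of 11, and Adora2a had 5 of 9. Of the cyclic AMP phosphodiesterases, Pde7b had 17 of 62 and Pde10a 14 of 72, all 14 within the gene. Adcy5 had 6 of 27 and Gnal, the G protein subunit that couples Drd1 to it, 6 of 30. Strn, a calmodulin-binding scaffold named after the striatum, had 10 of 21, Arpp21 8 of 90, Rgs9 (a regulator of G protein signalling) 5 of 25, the kinase gene Camk4 5 of 39 and Prkar2b, a regulatory subunit of protein kinase A, 4 of 24. Ppp1r1b, which encodes DARPP-32, had 2 NAC peaks and no member.

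Of the receptor genes, the serotonin receptor gene Htr1b had 9 members among 56 NAC peaks, Gpr149 6 of 43, Gpr6 5 of 17, the kappa opioid receptor gene Oprk1 4 of 18, and 3 each were near Oprm1 (the mu opioid receptor, of 33 peaks), Tacr1 (the substance P receptor, of 16) and Ntrk2 (the BDNF receptor, of 40). Both NAC peaks of Chrm4 were members. Of the peptide and GABA genes, Tac1 had 7 of 24, Npy 6 of 19 and Penk 5 of 34. Gad2 and Gad1, the GABA-synthesising enzymes, had 7 of 22 and 4 of 12.

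The genes with most members of all were not all on these lists. Cdh11 (a cadherin) had 25 members of 160 NAC peaks, and the cadherin gene Cdh8, Meis2 and the axon guidance receptor Robo2 had 24 each. Caln1, a neuronal calcium-binding protein, Tenm2, a teneurin, and Zswim6 followed with 23 each, and Dcc, the netrin receptor, with 22. Gm46320, Immp2l and Prkd1 had 21 each, and D3Ertd751e, Macrod2, Olfm4 and Ptprd 20 each. Several of these are next to long gene-poor stretches: members assigned to Cdh11 reached 1578 kb from the gene, those of Tenm2 1700 kb and those of D3Ertd751e 1643 kb. As a share of the gene's NAC peaks, Gm46320 (21 of 51), Meis2, Caln1 (23 of 85) and Zswim6 (23 of 86) were above the others, all at or over 26.7%.

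Members were also grouped along the chromosome. In windows of 250 kb the densest stretches held 19 members each, over Meis2 (among 47 NAC peaks of the window, chr2:115852189-116054806) and beside and within Zswim6 (among 53, chr13:107530512-107779326). Over Meis2 and in the stretch of 18 members next to Tle4, a corepressor gene (of 47, chr19:14297662-14508240), no NAC peak of the window met a PVT peak, while 13 and 7 met a cortical one. Next came Caln1 (16 of 50), Gm46320 with Vrk1 (16 of 34) and Drd1 (16 of 52). Across autosomes the share of NAC peaks that were members ran from 5.20% on chromosome 7 to 8.78% on chromosome 3.

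**Figure D2:**
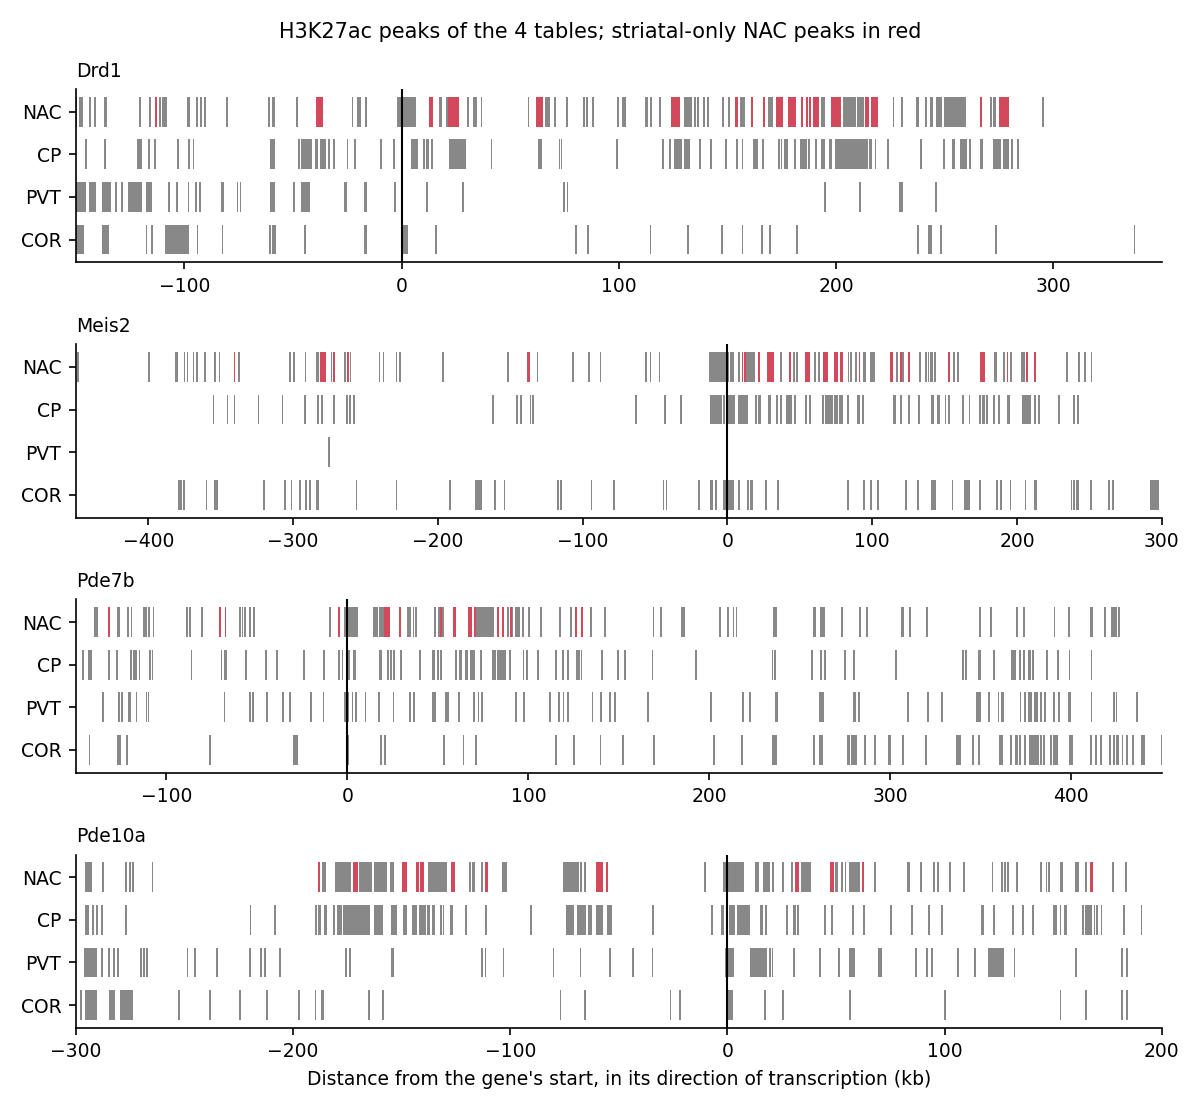
H3K27ac peaks of NAC, CP, PVT and COR around an annotated start of Drd1, Meis2, Pde7b and Pde10a. The x axis gives the distance from that start in kb, positive in the direction of transcription. For Pde7b and Pde10a the start used lies inside the gene, not at its outer start. Striatal-only NAC peaks are red, all others grey, and very narrow peaks are widened to stay visible; near Drd1 most red peaks lie over 100 kb downstream, while 1 PVT peak is in the Meis2 window.

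The libraries differed widely in depth, and this bears on every level below. Total counts over NAC peaks were 80516545 and 6415127 in the WT libraries and 19660428 and 14838045 in the Polg libraries. Over CP peaks they were 101443484 and 12048787 in WT and 16508975 and 88887475 in Polg, and every PVT and COR library had at least 52566179. WT replicate 2 stood apart in both regions, with 61.7% of members at 0 counts in NAC and 75.6% of the members' CP peaks at 0. In the other libraries 6.58% (NAC WT replicate 1), 21.7% and 13.3% (NAC Polg) of members were at 0, and in CP 18.4% (WT replicate 1), 36.0% and 21.0% (Polg). Of the 9676 members, 2779 had a count in all 4 NAC libraries and 803 (8.30%) in all 8 libraries, so that many members rest on part of the libraries. Zeros did not simply follow depth. Within NAC, Polg replicate 2 had 14838045 counts and 13.3% of members at 0, while the deeper Polg replicate 1 had 19660428 counts and 21.7% at 0. Of the 637 members at 0 in the deepest NAC library, WT replicate 1, 569 had at least 100 counts in another NAC library. How reads were assigned to peaks is not given in the sources used here, so a 0 in these tables may not mean that no read fell there. The Polg locus served as a check of the labels: its 3 NAC peaks summed to 3.17 and 0 CPM in WT and 32.2 and 30.03 in Polg, and its 3 CP peaks to 49.7 and 14.8 in WT and 80.8 and 100.3 in Polg, in each region higher in both Polg libraries.

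Members took 9.21% and 7.73% of all counts in the NAC WT libraries and 7.72% and 9.26% in the NAC Polg libraries. The genotypes overlapped. Over the CP peaks that members touched the share was 12.1% and 10.0% in WT and 12.9% and 11.3% in Polg, again with overlap. Exact permutation of 2 against 2 libraries cannot give a 2-sided p under 0.333, so no such test was made on single values.

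**Figure D3:**
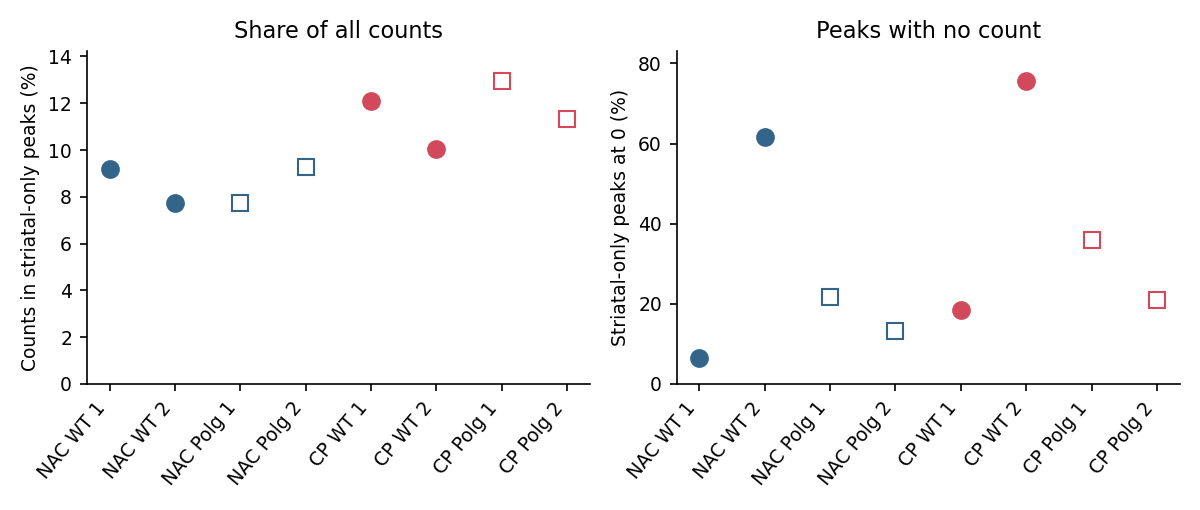
Each point is 1 of the 8 striatal libraries (filled circles WT, open squares Polg, blue NAC, red CP). The left panel gives the percent of the library's counts that fall in striatal-only peaks, between 7.72% and 12.9%, and the right panel the percent of striatal-only peaks with no count, where both WT replicate 2 libraries are highest at 61.7% and 75.6%.

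The median member had 7.81 CPM per kb in NAC (mean of 4 libraries, quartiles 5.55 and 10.9) and 13.2 in CP (quartiles 9.41 and 19.0), and the median over all autosomal NAC peaks was 7.29. NAC and CP values come from tables scaled separately over different peaks, so the 2 medians do not compare the regions. Across the 9676 members the levels in the 2 regions were weakly related, with a Spearman coefficient of 0.133. This is a description, since all members of a region are read from the same 4 libraries, which differ in depth.

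The 12 members of highest WT level per kb in NAC held 1 that was well counted throughout. It lay 2265 bp from Tmem125 (chr4:118547185-118548806), with 1016 and 515 CPM in NAC WT, 274 and 349 in NAC Polg, 838 and 85.0 in CP WT and 209 and 412 in CP Polg. Its WT libraries were both above the Polg libraries in NAC, an order that a choice by NAC WT level favours, and they overlapped in CP. The other 11 were 251 to 320 bp wide and had their highest NAC level in the shallow WT replicate 2: the peak next to Fam174a (chr1:95048389-95048639), for example, had 46.7 CPM there and 2.71 in WT replicate 1. Peaks near Myt1l, Eml5, Cfap36, Wwc1, Alk, Dact3, Spry2, Efnb2, Psmd7 and Gm11677 made up the rest.

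A firmer picture came from members that had counts in all 8 libraries. The one near Drd1 at chr13:53927680-53931757, 119426 bp from the gene, had the highest lowest value of those near the named genes. It showed 60.3 and 48.7 CPM in NAC WT, 38.5 and 42.6 in NAC Polg, 60.4 and 79.7 in CP WT and 75.5 and 106.4 in CP Polg. Its WT values were above its Polg values in NAC and overlapped them in CP, and the NAC difference was -0.20 on the log2 scale (SE 0.94) with an edgeR quasi-likelihood p adjusted over all NAC peaks of 0.999995. The member near Gm46320 at chr12:106380617-106383932 had 67.8 and 70.7 CPM in NAC WT, 29.0 and 35.3 in NAC Polg, 90.6 and 145.4 in CP WT and 70.3 and 59.6 in CP Polg. All 4 Polg values were below the WT values of their region there, and the NAC difference of -0.85 (SE 0.93) had an edgeR adjusted p of 0.999995.

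Within Bcl11b, the member at chr12:107953808-107958381 had 42.7 and 14.9 CPM in NAC WT, 16.2 and 18.3 in NAC Polg, 66.1 and 50.02 in CP WT and 77.8 and 70.9 in CP Polg, with overlap in NAC and both Polg libraries higher in CP. Within Adcy5, the member at chr16:35270813-35273731 had 19.3 and 28.2 in NAC WT, 25.3 and 16.8 in NAC Polg, 71.0 and 11.8 in CP WT and 43.1 and 16.8 in CP Polg, overlapping in both.

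Summed over all members of a gene, levels differed widely between libraries of 1 genotype. The 18 members near Drd1 summed to 494 and 318 CPM in NAC WT and 243 and 332 in NAC Polg, and in CP to 894 and 402 in WT and 890 and 632 in Polg. The 24 near Meis2 gave 461 and 205 in NAC WT, 134 and 390 in NAC Polg, 772 and 230 in CP WT and 889 and 734 in CP Polg. For both genes the ranges of the genotypes overlapped in each region, and WT replicate 2 was the lowest library of CP.

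The 14 members in Pde10a summed to 209 and 131 CPM in NAC WT, 99.6 and 205 in NAC Polg, 736 and 123 in CP WT and 743 and 419 in CP Polg. Those of Adora2a summed to 83.5 and 58.5 in NAC WT, 55.0 and 54.6 in NAC Polg, 206 and 57.4 in CP WT and 76.2 and 146 in CP Polg. The genotypes overlapped for Pde10a throughout, and for Adora2a in CP but not in NAC, where both Polg libraries were lower. Penk members summed to 148 and 31.9 in NAC WT, 48.6 and 84.0 in NAC Polg, 283 and 21.2 in CP WT and 176 and 137 in CP Polg, and the genotypes overlapped in both regions.

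Over the 56 named genes, WT and Polg sums did not overlap for 8 in NAC (7 with Polg below WT, 1 above) and for 14 in CP (13 with Polg above WT, 1 below). Among all 1064 genes with at least 3 members the share that did not overlap was 21.6% in NAC and 30.5% in CP. The NAC genes with Polg below WT included Caln1, Rxrg, Mn1, Adora2a, Gnal and Oprm1, and Arpp21 had Polg above WT. The largest of these differences was that of Mn1, whose members summed to 90.4 and 90.1 CPM in NAC WT and 36.9 and 38.4 in NAC Polg. Polg lay below WT in NAC and above it in CP for Caln1, Mn1 and Oprm1, an order seen in 2.82% of the 1064 genes. No named gene had the opposite one (0.282% of the 1064). That order needs both CP Polg libraries below the sparse CP WT replicate 2, so its share is no benchmark for the first. In CP, Polg was above WT for Robo2, Caln1, Zswim6, Foxp1, Foxo1, Rarb, Six3, Mef2c, Mn1, Pbx3, Rgs9, Gpr149 and Oprm1, and below WT for Ntrk2. WT replicate 2 of CP had 75.6% of members' peaks at 0, and the size of these differences moves with that library. Without it the log2 difference of Robo2 in CP, Polg over WT, was 0.46 in place of 1.37. The 13 genes higher in Polg have both Polg libraries above WT replicate 1 by the way they were picked, so this is no check of their order. The lean of 13 above to 1 below was not kept against WT replicate 1 alone. Both Polg libraries were above it for 13 of the 56 named genes (26.3% of the 1064) and both below it for 25 (42.8% of the 1064).

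**Figure D4:**
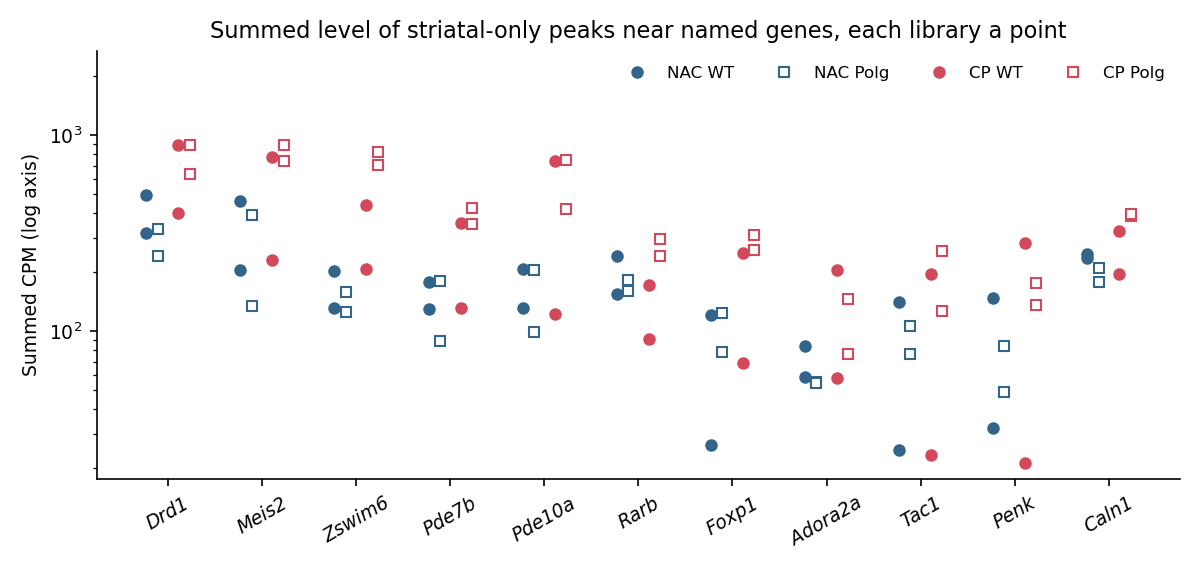
Summed CPM of the striatal-only peaks near 11 genes on a log axis, with each library a point (filled circles WT, open squares Polg, blue NAC, red CP; levels of NAC and CP are scaled separately). For each of the 11 genes CP WT replicate 2 is the lowest red point, as at Drd1 (402 CPM) and Meis2 (230 CPM).

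No member passed the genotype test. The comparison asked whether H3K27ac at these peaks differed between Polg(D181A) and WT neurons. In NAC, 0 of the 8813 members that passed the filter on low counts were called by the edgeR quasi-likelihood test at an adjusted p under 0.05, beside 3 of all 105058 peaks tested (0.00286% called). At an unadjusted p under 0.05 there were 74 members, or 0.840% of those tested, against 1.20% of all NAC peaks tested. In CP, 0 of the 7884 CP peaks touched by members were called and 0 of all 79535 (0% called), with 456 (5.78%) at an unadjusted p under 0.05 against 6.69% of all. The smallest adjusted p in CP was 0.373.

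The median log2 difference, Polg over WT, was 0.37 over the members tested in NAC and 0.68 over all NAC peaks tested, and 0.64 and 0.66 in CP. They stand beside the larger share of zeros in WT replicate 2. Without that library, which leaves 1 WT library, the median in NAC was -0.25 over members and 0.44 over all peaks then tested. In CP the medians without it were -0.11 and -0.05. The positive medians over members were thus not kept without WT replicate 2, and the cause was not tested. The biological coefficient of variation between libraries of a group was 1.87 in NAC and 2.20 in CP. With 2 libraries a group, a missing call at this spread does not show that levels were alike.

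For the 2 regions together, overlapping NAC and CP peaks were joined into 28821 loci, of which 9389 held a member. No member locus was called for a genotype difference common to NAC and CP (0 of 9071 tested, with 1 of all 28388 loci called, 0.00352%), and 214 (2.36%) had an unadjusted p under 0.05 against 1.55% of all loci. None was called for a genotype difference that differed between the regions (0 of 9389, and 0 of all 28821, 0%), with 650 (6.92%) at an unadjusted p under 0.05 against 5.70% of all.

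Other tools called more. DESeq2 called 125 members in NAC (1.29%, against 1.66% of all peaks) and 2309 of the members' peaks in CP (23.2% against 31.4%). Of the joined loci it called 111 that held a member (1.18% against 0.743% of all loci), and 1173 for the difference between regions (12.5% against 9.11%). With limma voom and quality weights the calls were 2 in NAC (0.0227% against 0.0504%), 3 in CP (0.0381% against 0.0214%), 64 joined loci (0.706% against 1.04%) and 11 for the difference between regions (0.117% against 0.198%). With edgeR, leaving out CP WT replicate 1, so that the sparse WT library stood alone, gave 892 in CP (10.4% against 5.42%) and 214 loci for the difference between regions (2.28% against 4.96%). Without CP WT replicate 2 there were 14 in CP (0.141% against 0.0632%), and without NAC Polg replicate 2 there were 15 members in NAC (0.159% against 0.162%).

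The members of smallest p, none of which passed, were peaks with reads in 1 genotype and few or none in the other. In NAC they lay near Bod1l, Snph, Pxdc1, Ralgapa1 and Car10, each lower in Polg and each with an edgeR adjusted p of 0.984. The one near Bod1l (chr5:42456129-42457139) had 25.7 and 34.9 CPM in NAC WT and 0 in both Polg libraries, and the one near Pxdc1 (chr13:34623187-34625605) 33.9 and 65.8 in WT and 0 and 2.12 in Polg. In CP they lay near Nuak1, Nup35, Adcyap1r1 and Srpk2, higher in Polg, and Slc35f3, higher in WT, each with an adjusted p of 0.373. The peak near Nup35 had 0 in both CP WT libraries and 64.3 and 50.2 in Polg.

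In the joined test the smallest p values were near Srpk2, Cdh8, Wwc2, Wdr33 and Alk, with an edgeR adjusted p of 1. The Cdh8 locus, whose member is chr8:100668894-100674220, also led the test of a difference between regions (adjusted p = 0.736). It had 91.5 and 45.4 CPM in NAC WT, 59.8 and 102.0 in NAC Polg, 0.219 and 0 in CP WT and 58.3 and 26.6 in CP Polg. The genotypes thus overlapped in NAC and did not in CP. The other 4 of that test lay near Dchs2, Ctnnd2, Cdh11 and Nuak1.

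The features that were called lay outside the members. In NAC they were 3 peaks lower in Polg, with the nearest genes Kcng3, Cul2 and Spink8, and each had most of its reads in the sparse WT replicate 2. The peak near Kcng3 (chr17:83590652-83591909), for example, had 8.71 and 237 CPM in NAC WT and 0 and 2.96 in NAC Polg. The called joined locus was a wide peak over Arsi and 1 end of Camk2a, the gene whose promoter drives the transgene. It had 274 and 180.7 CPM in NAC WT, 526 and 649 in NAC Polg, 120 and 41.9 in CP WT and 289 and 226 in CP Polg, and was 1.82 higher in Polg on the log2 scale (SE 0.26, edgeR adjusted p = 3.86e-08), so this locus and that of Polg both went with the genotype labels.

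PVT chromatin was used as a readout that the rule did not take in. ATAC-seq, which reads open chromatin, had been done in PVT neurons, and 10.4% of members (1010) overlapped a PVT ATAC peak by at least 1 bp. Of the peaks found in NAC alone 4.01% did, and of those shared by all 4 regions 65.5%. The order held in every width class: among peaks of 251 to 500 bp the shares were 2.77% (NAC only), 6.00% (members) and 40.1% (all 4), and among those of 2001 to 5766 bp they were 12.7%, 18.4% and 70.3%. Away from gene ends the shares were 3.60%, 9.23% and 52.2%. Members counted in all 4 NAC libraries overlapped an ATAC peak in 16.0%. Since members lack a PVT H3K27ac peak by rule, a low share against peaks of all 4 regions is in part given.

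**Figure D5:**
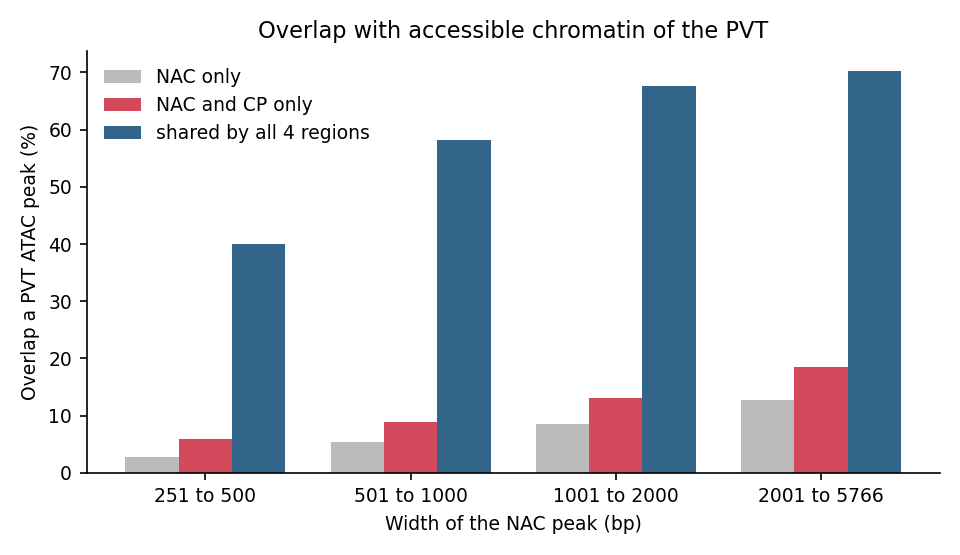
Bars give the percent of NAC peaks that overlap an ATAC peak of the PVT, by width of the NAC peak, for peaks of NAC alone, striatal-only peaks and peaks of all 4 regions. In each of the 4 width classes the striatal-only bar lies between the other 2, rising from 6.00% to 18.4%.

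RNA in these data came from the PVT only, so it does not show expression in striatum. In the 4 euthymic, COX-positive WT libraries of the PVT, genes with at least 3 members had a median of 64.3 CPM, those with 1 or 2 members 12.5 and those near NAC peaks with no member 2.56. The values are not per length, and genes with many nearest peaks are often long, so they describe the gene sets only. Drd1 had 0.269, 0.0223, 0.0228 and 4.85 CPM in the 4 libraries, Six3 1.27, 0.579, 0.114 and 11.1, and Isl1 0.404, 0.156, 0.387 and 2.97. Chrm4 was at 0 in 2 of the 4 and reached 0.109 CPM, Nts had 0.700, 0.178, 0.159 and 7.82, and Pdyn was at 0 in 2 libraries with 23.7 and 10.3 in the others. Pde10a was measured at 20.9, 600.1, 8.09 and 250.5 CPM. These 7 genes, Drd1 and those with a covered start, are not typical of genes with members. Of 58 named genes with members that matched in the RNA table, 10 had a PVT median under 1 CPM and 35 one of at least 10, among them Foxp1 (287 to 401 CPM), Rarb (120 to 741) and Meis2 (2.87 to 294).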

How the data were processed

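Each H3K27ac and ATAC table holds raw read counts per peak as deposited by the authors, over 1 merged peak set for its 4 libraries, per the file headers. The RNA table holds raw counts per gene as deposited. HOMER, STAR, featureCounts, Subread and DESeq2, and mm10 as the build, are named without versions or roles in the submitters' processing notes. Peak thresholds, duplicate removal and strand use are not stated in those sources. Library preparation used the NEB Next Ultra II kit, per the labels. A peak exists where the merged set of its table has one, so membership may depend on the depth of the libraries behind each table. The counts carry no molecular identifiers.

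Each NAC peak was compared with the peaks of the other tables by overlap of at least 1 bp, and the nearest protein-coding gene was taken from the RefSeq table of assembly GRCm38.p6, which is mm10. No genome was used, so sequences and motifs cover gene starts only. Starts on chromosome 18 were not used here, and those of some genes on other chromosomes were also missing from the set. CPM were computed on total counts of all peaks of a table scaled by TMM (edgeR's trimmed mean of M values). A member's CP value sums the CP peaks it touches. The members, the gene lists, the motifs and the tests were chosen with earlier results of these data known. Genes are named by a rule: the 15 with most members, and every gene of the first 4 lists with at least 3 members. Peaks are named as the 12 members of highest level per kb in NAC WT libraries and, in each genotype test, the 5 of smallest p where fewer than 5 were called. Members with counts in all 8 libraries, the chromosome windows, the wide peaks, the list genes with covered starts and the called features outside the members were picked after their values were seen.

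Genotypes were compared with the edgeR 4.0.16 quasi-likelihood test (R 4.3.3; 2-sided, TMM scaling, edgeR's filter on low counts, robust dispersion, Benjamini-Hochberg adjustment over all peaks of the table, threshold 0.05). NAC and CP were fitted apart, with 4 libraries each, and joined loci with region and genotype in 1 model of 8 libraries, with and without their interaction. The scripts were tested on simulated data. Alternatives were DESeq2 1.42.0, limma 3.58.1 voom with quality weights, other scalings, no filter, each library left out, a replicate block, and other rules for members. Input libraries were not used here, and some genes that the rule names are not reported here.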

Additional observations from a re-analysis of the deposited data

Results flagged for a closer look

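For 3 named genes both Polg libraries lay below both WT libraries in NAC and above both in CP, while no member locus passed the test of a difference between regions. The log2 difference of summed CPM, Polg over WT, was -0.32 in NAC and 0.59 in CP for the Caln1 members, -1.26 and 0.63 for those of Mn1 and -0.44 and 1.92 for those of Oprm1. Without CP WT replicate 2 (a setting chosen after seeing the data) the CP values were 0.27, 0.48 and 0.92. The difference of these sums between the regions was not tested. Among all 1064 genes with at least 3 members, the same order was seen for 30, or 2.82%. The opposite one, with Polg above WT in NAC and below it in CP, was seen for 3, or 0.282%. That order needs both CP Polg libraries below the sparse CP WT replicate 2, so its count is no benchmark for the first. In CP the WT replicate 2 library had 0 CPM over the Oprm1 members, where 75.6% of all members' CP peaks had no count.

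In the RNA of the PVT, 1 of the 4 WT libraries lay far above the other 3 for 4 of the 7 genes whose values are given: Drd1 at 4.85 CPM, Isl1 at 2.97, Nts at 7.82 and Six3 at 11.1. It was the same library for all 4, the last of the group in the deposited order, as the headers give no replicate numbers. The measure used has a nominal rate of about 1 in 20 for independent groups of normally distributed values. That rate was not measured here, and genes of 1 library are not independent, so it is no benchmark for these 4. The library stood apart more widely: among 58 named genes with members it was the highest for 33, and far above the other 3 by the same measure for 13.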

How the results depend on the processing

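Counts of calls depended on the tool, the scaling and single libraries. Members called in NAC went from 0 to 6 with scaling by total counts, 1 with no filter, 125 with DESeq2 and 2 with limma voom, and ranged from 0 to 15 with a library left out. All NAC peaks called went from 3 to 11 with DESeq2 size factors, 119 with total counts, 29 with no filter, 2204 with DESeq2, 53 with limma voom and 0 among peaks counted in all 4 libraries (an alternative chosen after seeing the data), and ranged from 0 to 201 with a library left out. Members called in CP went from 0 to 1 with total counts, 2309 with DESeq2 and 3 with limma voom, and ranged from 0 to 892. All CP peaks called went from 0 to 8, 1 with no filter, 40171 and 17 in that order, and ranged from 0 to 5436. Member loci called for genotype in both regions went from 0 to 111 with DESeq2 and 64 with limma voom, and stayed at 0 with any library left out. For the difference between regions the counts were 1173 and 11, and ranged from 0 to 214, the highest without CP WT replicate 1. The causes were not tested.

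A replicate block gave 0 calls of members in NAC, CP and both joined tests, 0 of all NAC peaks and 1 of all CP peaks. The deviations of equally numbered libraries from their group means correlated at -0.04 in NAC and -0.03 in CP, over all tested peaks. The labels used here name no tie between equally numbered libraries, and values near 0 over such sparse counts cannot exclude one. Between NAC and CP the difference of replicates 1 and 2 correlated at 0.12 in WT and -0.04 in Polg over 28821 joined loci. With equal numbers of the regions as a replicate block (chosen after seeing the data), 0 of 9389 member loci were called for the difference between regions. The joined test of genotype treats the 8 libraries as independent.

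Requiring CP peaks over at least 50% of the NAC peak left 4285 members in place of 9676, while 6856 had no PVT or COR peak within 1000 bp and 9723 were found with no peak left out for its width. The same rule applied to CP peaks found 11981 of them. The shares near the 4 striatal lists stayed above those of all NAC peaks under each of 5 other choices of members or peaks, chosen after seeing the data, from 1.75 to 3.91 times. Each of these choices keeps the overlap rule, which in part sets the shares. The share at gene ends rose from 4.89% to 12.1% with a limit of 5000 bp, and that on ATAC peaks fell to 8.12% where at least 50% of the ATAC peak had to be covered. Depth was lowest in NAC WT replicate 2 (6415127 counts), and zeros over members were most frequent in CP WT replicate 2 (75.6%).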
